A study of Mus musculus with 6 samples.

Results

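The Kcn genes, which encode the pore-forming and accessory subunits of potassium channels, were examined in ribosome-bound RNA of layer 5 cortical neurons from mice given fluoxetine or vehicle. Members were the genes whose only symbol in the array annotation starts with Kcn. There were 84 such genes, read by 167 probe sets, among 18193 genes on the array. Each gene was read from its probe set of highest mean over the 6 arrays. A gene was compared where the mean of at least 1 treatment group reached an intensity of 50, and 50 of 84 (59.5%) did so, among 10830 genes of all kinds. Intensity is the brightness of a probe set after GCRMA normalization, on a linear scale that cannot be compared between probe sets. The 50 were 23 of 31 voltage-gated pore subunits, 7 of 12 auxiliary subunits of voltage-gated channels, 6 of 15 inward rectifiers, 6 of 12 two-pore channels, 7 of 11 calcium- and sodium-activated channel genes, and 1 of 3 noncoding transcripts named after a channel gene. No measured value other than this filter and the choice of probe set picked the members.

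All the mice carried the bacTRAP transgene of line DU9, which expresses a tagged ribosomal protein under regulatory sequence of Glt25d2 (now Colgalt2), and they had been backcrossed from FVB onto C57BL/6 for 3 to 5 generations. The treated group drank 0.167 mg/ml fluoxetine, a serotonin reuptake inhibitor, in 1% saccharine, and the vehicle group drank 1% saccharine, each for 15 to 18 days. Tagged ribosomes were purified from cortex (translating ribosome affinity purification, TRAP), 15 ng of RNA was amplified in a pair of cycles, and each of 3 purifications per group, numbered 1 to 3, went on 1 array. The samples are called biological replicates, but neither the mice per purification nor their age is given in the sources used here, so p-values measure the spread between these arrays. The 1 transgenic line and its driver limit the model, since untagged RNA that came through the purification would be read as well. Titles, sources and treatment fields name one treatment and the description fields name the other on all 6 samples. Groups here follow the titles and are called fluoxetine-titled and vehicle-titled. If the descriptions are right, every signed difference between the groups turns and every p stays as it is.

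Potassium channels let potassium leave the cell and so set the resting potential, shape the action potential and limit repetitive firing. Voltage-gated channels open on depolarization, inward rectifiers and two-pore channels carry current near rest, and calcium- or sodium-activated channels open after firing has loaded the cell with those ions. Most pore subunits assemble as tetramers (two-pore subunits as dimers), and accessory subunits change their gating or their transport to the membrane.

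None of the 50 channel genes was called different between the title groups. The limma test, with Benjamini-Hochberg adjustment over 19073 probe sets, gave 0 calls at an adjusted p under 0.05 among the members and 0 among all probe sets, which is 0% of them. The smallest adjusted p among members was 1.00, and 0.993 with the replicate number as a block. At an unadjusted p under 0.05 the same limma test held 1 of 50 members (2.0%), beside 0.591% of all genes (64 of 10830), and the block raised this to 4 members (8.0%) beside 3.41% of all genes. Differences (log2 intensity, fluoxetine-titled minus vehicle-titled) ran from -0.36 to 0.30, with 26 members above 0 and 24 below. Their median was 0.0070, beside -0.0068 over all genes, and their median size was 0.083, beside 0.082. The 95% confidence interval lay within a 2-fold change in either direction for all 50 members and within 1.5-fold for 34. In 10394 of 10830 genes it lay within 2-fold, and in 7146 within 1.5-fold. With the replicate block it lay within 1.5-fold for 45 members and 9957 genes.

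The title groups did not overlap for 2 members, both lower on the fluoxetine-titled arrays (4.0%, beside 1.98% of all genes), and for 0 members in the other direction (beside 1.63%). Within replicate numbers, 7 members were higher on the fluoxetine-titled array in 3 of 3 pairs (14%, beside 10.9% of all genes) and 8 were lower (16%, beside 13.1%). The 7 were Kcna4, Kcna6, Kcnf1, Kcnj3, Kcnj13, Kcnk3 and Kcnn2, and the 8 were Kcna1, Kcna2, Kcna5, Kcnd3, Kcnh1, Kcnk2, Kcnn1 and Kcnt1. These shares were near those of all genes and no more is read from them. They rest on 1 probe set per gene. Of the 9 of these 15 genes with several probe sets past the filter, Kcna2 alone had them all in 1 direction in every pair.

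**Figure D1:**
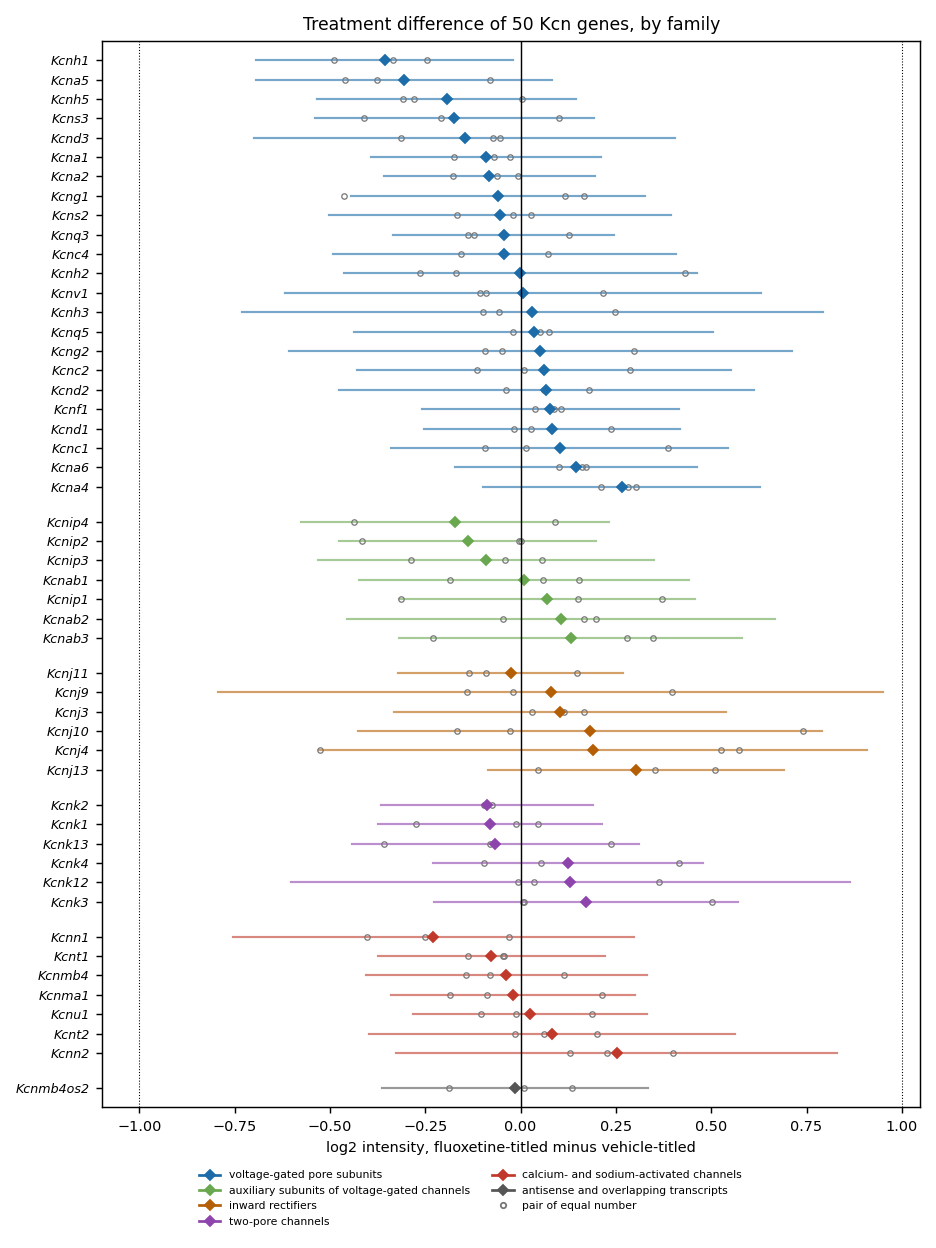
Log2 intensity difference (fluoxetine-titled minus vehicle-titled) of each of the 50 channel genes, by family, with its limma 95% confidence interval as a bar, the 3 pairs of equal number as open circles and a 2-fold change as dotted lines. The intervals are from the fit without the replicate block. Those of all genes but Kcnh1 reach 0, and the points lie between -0.36 and 0.30.

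Kcnh1 encodes a voltage-gated channel of the ether-a-go-go group. Its intensity (probe set 1435994_at) was 293, 328 and 264 on fluoxetine-titled arrays 1, 2 and 3 and 347, 414 and 371 on vehicle-titled arrays 1, 2 and 3. The groups did not overlap, and the fluoxetine-titled array was the lower in each of the 3 pairs, by 0.25, 0.33 and 0.49 on the log2 scale. The log2 difference was -0.36 ± 0.14 (SE, n = 3 per group), a ratio of 0.781, with a 95% interval of -0.69 to -0.019. The unadjusted limma p was 0.0411 (0.0129 with the replicate block) and the adjusted limma p was 1.00. The other Kcnh1 probe set, 1418414_at, read 184, 255 and 248 against 199, 301 and 244. On that probe set the groups overlapped, pair 3 ran the other way and the log2 difference was -0.11. Without fluoxetine-titled array 1, or without vehicle-titled array 3, 0 members had an unadjusted limma p under 0.05.

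The Shaker-related Kcna genes encode low-threshold channels, with Kcna1 and Kcna2 best known from axons. Kcna2 read 2571, 2396 and 2583 on the fluoxetine-titled arrays and 2686, 2711 and 2595 on the vehicle-titled ones. Its groups did not overlap either, but the log2 difference was -0.082 ± 0.12 and the nearest arrays of the groups read 2583 and 2595. The dimmer Kcna2 probe set past the filter, 1439872_at, had overlapping groups, at 758, 791 and 793 against 769, 836 and 872. Kcna1 read 3639.7, 3913 and 3700.5 against 3822, 4416 and 3776, with overlapping groups and a difference of -0.091 ± 0.13. Kcna5 read 174, 206 and 251 against 240.1, 267 and 266, with a difference of -0.31 ± 0.16. The fluoxetine-titled array of Kcna5 was lower in every pair, yet number 3 of that group lay above vehicle-titled number 1. Kcna4, whose channel inactivates quickly (A-type current), lay the other way, at 353, 311 and 287 against 305, 252 and 236. Its difference was 0.26 ± 0.15 and was alike in the 3 pairs, at 0.21, 0.30 and 0.28. The other, dimmer probe set of Kcna4 (1422255_at) gave -0.12 with no overlap, at 51.2, 50.3 and 44.7 against 53.4, 51.8 and 53.3, so its probe sets disagreed in sign. With the replicate block the unadjusted limma p was 0.0339 for Kcna4 and 0.0361 for Kcna5, and the adjusted limma p stayed at 0.993 for each.

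**Figure D2:**
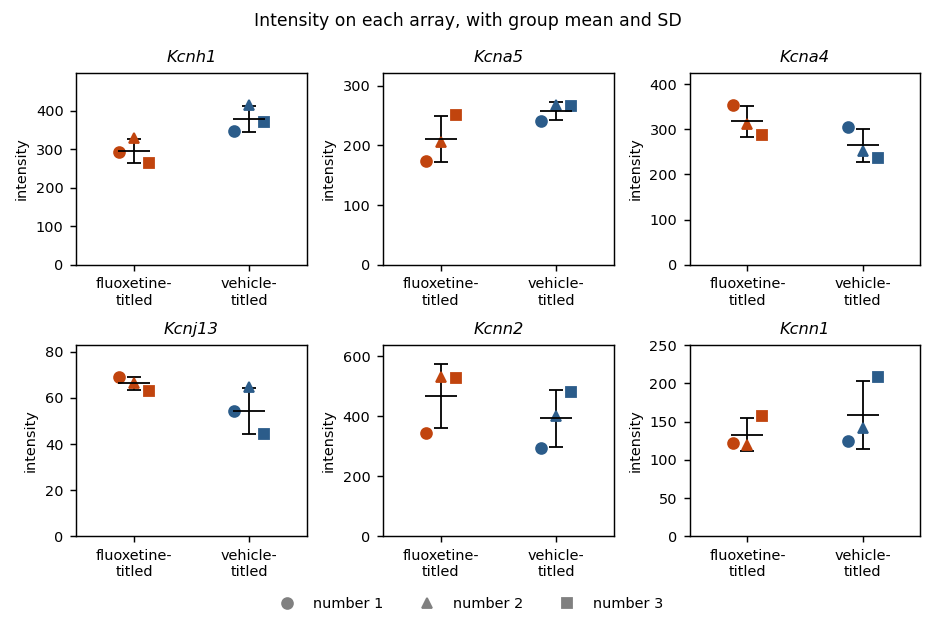
Intensity (linear scale from 0) on each array for 6 channel genes with large differences for their family, with the group mean and SD (n = 3) as a cross bar and whiskers and the replicate number as the symbol. Kcnh1 shows no overlap between the title groups, while the groups of Kcna4, Kcna5, Kcnj13, Kcnn1 and Kcnn2 overlap.

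Promoter sequences are shown for 3 channel genes: Kcnh1 and Kcna4, at opposite ends of the voltage-gated differences, and Kcnj9, the member with the widest range between replicate numbers. They were chosen after the values were seen. Each run is the 250 bases before the RefSeq start on GRCm38.p6, 5′ to 3′ on the gene's strand, and capitals mark a GC box (GGGCGG or its reverse complement) or a TATA box (TATAAA).
Kcnh1 at chr1:192190527-192190776, plus strand: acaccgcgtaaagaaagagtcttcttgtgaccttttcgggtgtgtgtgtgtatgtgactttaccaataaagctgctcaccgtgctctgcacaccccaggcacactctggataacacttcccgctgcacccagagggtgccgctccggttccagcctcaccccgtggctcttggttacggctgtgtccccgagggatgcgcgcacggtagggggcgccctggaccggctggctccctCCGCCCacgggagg
Kcna4 at chr2:107290339-107290588, plus strand: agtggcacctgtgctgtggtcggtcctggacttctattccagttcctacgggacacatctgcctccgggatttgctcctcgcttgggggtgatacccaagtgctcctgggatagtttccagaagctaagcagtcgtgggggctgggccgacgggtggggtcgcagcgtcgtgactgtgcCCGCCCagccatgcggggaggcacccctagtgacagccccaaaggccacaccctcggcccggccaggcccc
Kcnj9 at chr1:172329323-172329572, minus strand: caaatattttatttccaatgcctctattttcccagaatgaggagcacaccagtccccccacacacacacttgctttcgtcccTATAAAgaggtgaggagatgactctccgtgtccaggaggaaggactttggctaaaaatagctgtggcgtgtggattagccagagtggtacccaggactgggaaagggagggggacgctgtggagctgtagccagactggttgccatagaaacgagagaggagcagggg
The Kcnh1 and Kcna4 runs each held 1 GC box and were 62.0% and 65.2% G or C, and the Kcnj9 run held 1 TATA box and was 52.0% G or C. Of the 50 compared members, 36 had an entry in the RefSeq promoter table, with 54 start sites. On either strand, GGGCGG occurred before 24 of 54 of these starts (44.4%, beside 32.7% of 32851 starts of all genes), TATAAA before 2 (3.70%, beside 12.4%) and TGACG, a part of the cyclic AMP response element, before 9 (16.7%, beside 17.8%). Start sites of 1 gene share sequence, and a match is a run of letters and not a binding site.

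The Kcnc (Shaw-related) channels allow fast spiking and are prominent in parvalbumin interneurons. Kcnc1 read 1540.3, 1583 and 1416 on the fluoxetine-titled arrays and 1525, 1690.5 and 1082 on the vehicle-titled ones. Kcnc2 read 1271, 1663 and 1267 against 1376, 1651 and 1038. Vehicle-titled array 3 was the lowest of the 6 for both, and the groups overlapped. Kcnc4, also compared, went the other way, with vehicle-titled array 3 the highest of the 6 (2114). Its pair 3 difference was -0.045, and -0.12 on its dimmer probe set 1425089_at. Differences within pairs 1, 2 and 3 were 0.015, -0.095 and 0.39 for Kcnc1 and -0.11, 0.010 and 0.29 for Kcnc2. The 8 measured interneuron markers (of 9 listed, among them Gad1, Pvalb and Sst) had median differences of -0.090, -0.024 and 0.40 in the same pairs. Pvalb itself was lower on the fluoxetine-titled array in every pair (-0.18, -0.41 and -0.32). The summed intensity of the 8 markers was 24030 to 29192 on the fluoxetine-titled arrays and 19711 to 28516 on the vehicle-titled ones. It was lowest on vehicle-titled array 3. Gad1 alone read 16165 of the 24030 on fluoxetine-titled array 1, so the sum mostly follows that probe set. None of the markers was below 50 on every array. Their part in the Kcnc values was not tested. The other Kcnc1 probe sets past the filter, 1456944_at and 1423559_at, had pair 3 differences of 0.14 and -0.038 and were lowest at number 1. RNA from fewer interneurons and less RNA per interneuron cannot be told apart in such bulk samples.

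The Kcnd channels carry the A-type current of dendrites. Kcnd2 read 2569.8, 1944 and 1785 against 2640.1, 1863 and 1575 and Kcnd3 read 836, 676 and 582 against 1039, 703 and 612. In both groups the array numbered 1 was the highest for each gene, and the title groups overlapped, with differences of 0.068 ± 0.23 and -0.15 ± 0.23. Their auxiliary subunit Kcnip2, a calcium-binding protein that changes the gating of Kcnd channels, read 982, 927 and 1085 against 981, 1237 and 1087. Its difference of -0.14 ± 0.14 came from pair 2 alone (-0.42, beside 0.0015 and -0.0031). The dimmer Kcnip2 probe set past the filter, 1425870_a_at, gave 0.093, with 0.54, -0.39 and 0.12 in the pairs. Kcnab2, the beta subunit that binds Kcna channels, read 2249.8, 2928 and 3569.7 against 2005, 3025 and 3113. It was lowest on the arrays numbered 1 in both groups, and its difference was 0.11 ± 0.24. The dimmer Kcnab2 probe set past the filter, 1425885_a_at, gave -0.068. The 7 auxiliary genes ranged from -0.17 (Kcnip4) to 0.13 (Kcnab3). Of the dimmer Kcnip4 probe sets past the filter, 1451840_at gave -0.15 and 1450370_a_at gave 0.069.

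Kcnq3 and Kcnq5 encode subunits of the M-current, a slow current that neurotransmitters shut off through Gq-coupled receptors. Kcnq3 read 1147, 1119 and 1236 against 1264, 1217 and 1132, a difference of -0.045 ± 0.12. It varied least of all members over the 6 arrays, with a highest-to-lowest ratio of 1.13 (median over members 1.49, highest 2.27 for Kcnj4). Kcnq5 read 1490.2, 1102 and 1033 against 1416, 1118 and 997, a difference of 0.034 ± 0.20. The other members among the voltage-gated pore genes that were named for their spread were Kcnh3, Kcng2 and Kcnv1. Kcng2 and Kcnv1 encode electrically silent subunits that form working channels only with other subunits. Over all 23 voltage-gated pore genes the median difference was -0.00059, with 11 above 0 and 12 below.

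Among the inward rectifiers, 5 of 6 measured genes lay above 0, with a median of 0.14 and a range from -0.026 (Kcnj11) to 0.30 (Kcnj13). None passed the limma test, and with all 15 listed genes and no intensity filter the median was 0.079. Leaving out an array or a number moved it between 0.069 and 0.22. Kcnj13, best known from epithelia such as the choroid plexus, read 69.1, 66.5 and 63.1 against 54.1, 64.5 and 44.3. It was higher in every pair, by 0.35, 0.044 and 0.51, but vehicle-titled array 2 lay above fluoxetine-titled array 3. Its difference was 0.30 ± 0.17, with an unadjusted limma p of 0.0465 under the replicate block (adjusted limma p 0.993). Kcnj4, an inward rectifier of forebrain neurons, read 64.3, 93.6 and 68.1 against 43.3, 65.0 and 98.1 and was higher in pairs 1 and 2 (0.57 and 0.53) and lower in pair 3 (-0.53). Kcnj3 and Kcnj9 encode subunits of the channels that G protein-coupled receptors, serotonin receptors of the 1A type among them, open through G beta-gamma. Kcnj3 read 2124, 1699.6 and 1558 against 1962, 1664 and 1389.9 and was higher in every pair, by 0.030 to 0.17, with a difference of 0.10 ± 0.19. Its dimmer probe sets disagreed, with -0.19 for 1421468_at (pair 3 -0.55) and 0.33 for 1444025_at, which was higher in every pair (unadjusted limma p 0.0241 under the replicate block). Kcnj9 read 321, 716 and 687 against 353, 543 and 697. The mean of the arrays numbered 1 was the lowest of the 3 numbers for Kcnj9 in both groups, and the difference between groups was 0.079 ± 0.37. Their partner Kcnj6 did not reach 50, with group means of 20.4 and 22.6.

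Kcnj10 encodes Kir4.1, the main potassium conductance of astrocytes. It read 223, 219 and 209 on the fluoxetine-titled arrays and 251, 223 and 125 on the vehicle-titled ones. Only vehicle-titled array 3 stood off, and the differences within pairs were -0.17, -0.028 and 0.74. The difference over all arrays was 0.18 ± 0.26, and without vehicle-titled array 3 it was -0.12. All 12 astrocyte markers (such as Aqp4, Slc1a3 and Gja1) were measured, with median pair differences of -0.036, -0.019 and 0.78. Their summed intensity was 51972 to 61169 on the fluoxetine-titled arrays. It was 37536 on vehicle-titled array 3, beside 57943 and 63445 on the other vehicle-titled arrays. Clu alone read 18131 of that 37536, so the sum leans on the brightest markers. None of them was below 50 on every array. Their part in the Kcnj10 values was not tested.

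**Figure D3:**
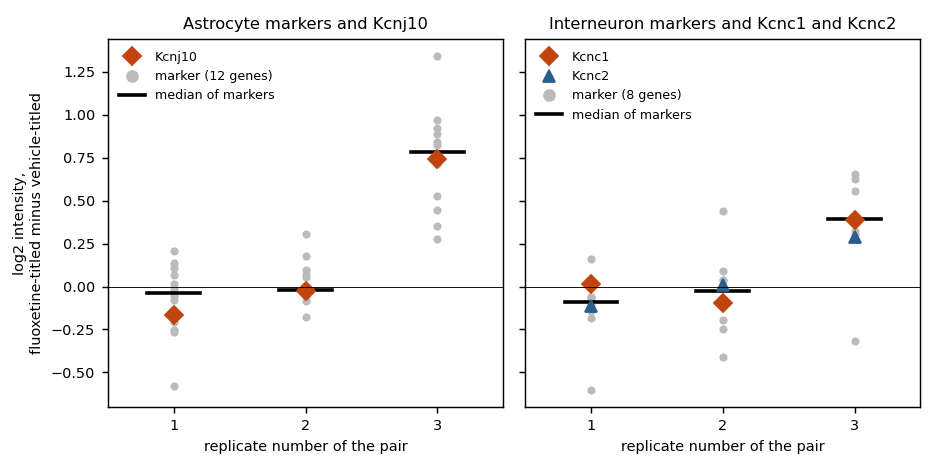
Log2 intensity difference within each replicate number (fluoxetine-titled minus vehicle-titled) of 12 astrocyte markers beside Kcnj10 (left) and of 8 interneuron markers beside Kcnc1 and Kcnc2 (right). Grey points are markers and black bars their medians, and in pair 3 Kcnj10 (0.74) lies near the astrocyte median (0.78) and the brightest Kcnc1 probe set (0.39) near the interneuron median (0.40). Kcnc4, which is not drawn, had a pair 3 difference of -0.045.

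Two-pore channels carry the leak current. Kcnk1 read 2485, 2239.9 and 2522 against 2504, 2709 and 2446, a difference of -0.080 ± 0.13, and its groups overlapped. Kcnk2, which encodes the stretch- and lipid-sensitive channel TREK-1, read 580.0, 623 and 604 against 618, 665 and 636. Kcnk2 was lower on the fluoxetine-titled array in each pair, by 0.074 to 0.095, and its groups overlapped. Kcnk3, an acid-sensitive leak channel, read 153, 172 and 222 against 152, 171 and 157, a difference of 0.17 ± 0.17 that came from pair 3 (0.50, beside 0.0055 and 0.0079). Kcnk12 read 74.1, 116 and 144 against 74.5, 89.8 and 140.0, with near-equal values on the arrays numbered 1 and a difference of 0.13 ± 0.31. Kcnk4 read 54.5, 48.4 and 51.4 against 40.9, 46.6 and 54.9 and was compared only because the fluoxetine-titled mean passed the filter (51.4, beside 47.5). The family had 3 genes above 0 and 3 below, with a median of 0.029, and the median was -0.067 where both group means had to reach 50.

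Among the calcium- and sodium-activated channels, 3 genes lay above 0 and 4 below, with a median of -0.020. Kcnu1, a related gene whose channel is not opened by these ions, was placed here by its symbol and counts among those above 0. With the mean of a gene's probe sets the median was 0.024, which is the value of Kcnu1 itself. The median ran from -0.046 to 0.027 when an array or a number was left out, so its sign was not settled. Kcnn2 and Kcnn1 encode small-conductance (SK) channels of the afterhyperpolarization. Kcnn2 read 344, 531 and 527 against 294, 402 and 482 and was higher in every pair, by 0.23, 0.40 and 0.13. Kcnn1 read 122, 119 and 158 against 124, 142 and 209 and was lower in every pair, by 0.031, 0.25 and 0.40. The other Kcnn1 probe set past the filter, 1419617_at, gave 0.25, -0.31 and 0.18 in the pairs and a difference of 0.039. The groups overlapped for each gene, and the differences were 0.25 ± 0.25 and -0.23 ± 0.22. Kcnma1, the pore of the large-conductance (BK) channel, read 316, 315 and 381 against 359, 335 and 329. Its brain-enriched beta subunit Kcnmb4 read 1917, 1682 and 2053 against 1772, 1779 and 2267. Their differences were -0.020 ± 0.14 and -0.037 ± 0.16. The sodium-activated genes Kcnt1 and Kcnt2 read 259, 258 and 238 against 285, 267 and 246 and 602, 542 and 403 against 578, 472 and 407, with differences of -0.077 ± 0.13 and 0.082 ± 0.20. The probe set of Kcnt1 given here was lower on the fluoxetine-titled array in every pair, but 1458428_at was higher in every pair (0.052, 0.082 and 0.20, difference 0.11) and 1441511_at was lower in every pair (difference -0.15). The noncoding transcript listed as Kcnmb4os2 had a difference of -0.015.

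The 34 members that did not reach 50 had group means from 4.46 to 43.6, and 10 of them were below 10 on every array. The intensity filter passed Kcnh5 (46.6 and 53.2, fluoxetine-titled first) and Kcnk4 through 1 group only. The nearest members outside it were Kcnk6 (42.1 and 43.6) and Kcnj16 (41.6 and 34.1).

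The replicate number, whatever it stands for, accompanied larger differences than the treatment title. A limma F-test of the number, with the group in the model, called 9 of 50 members (18%) at an adjusted p under 0.05, beside 12.9% of all genes (1396 of 10830). For the median member the number took 63.3% of the sum of squares on the log2 scale (over 2 degrees of freedom) and the title group 6.32% (over 1), beside 70.2% and 5.35% over all genes. The widest range between the means of numbers was 2.06-fold for Kcnj9 (adjusted limma p 0.0191), followed by 1.91-fold for Kcnk12 (0.0226), 1.81-fold for Kcnh3 (0.0189), 1.71-fold for Kcng2 (0.0338) and 1.69-fold for Kcnv1 (0.0347). Kcnn2, Kcnab2, Kcnd3 and Kcnd2 had ranges of 1.58, 1.57, 1.56 and 1.55-fold with adjusted limma p from 0.0369 to 0.0446. The median over members was 1.25-fold, beside 1.27-fold over all genes.

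The mean of the arrays numbered 1 was the lowest of the 3 numbers for Kcnj9, Kcnk12, Kcnh3, Kcng2, Kcnn2 and Kcnab2 and the highest for Kcnd2, Kcnd3 and Kcnv1. Kcnh3, an ether-a-go-go-like channel of the forebrain, read 210.2, 342 and 334 on the fluoxetine-titled arrays and 177, 355 and 358 on the vehicle-titled ones, with both arrays numbered 1 below the other four. Kcng2 read 60.1, 59.8 and 89.7 against 48.9, 61.8 and 95.7, with both arrays numbered 3 above the rest. Kcnv1 read 509, 407 and 303 against 548, 350.3 and 322, with both arrays numbered 1 above the rest. Without both arrays numbered 1 the test called 0 members, and without fluoxetine-titled array 1 or vehicle-titled array 1 it called 2. It called 4 without fluoxetine-titled array 2 and 5 without vehicle-titled array 2, vehicle-titled array 3 or both arrays numbered 3. With no intensity filter it called 0 (smallest adjusted limma p 0.102). Shares of all genes under these settings are not given here, so nothing particular to channel genes is read from the counts. The ratio of 3′ to 5′ Gapdh control probe sets, a measure of RNA length, was 1.85, 2.58 and 3.09 on fluoxetine-titled arrays 1, 2 and 3 and 2.38, 2.34 and 2.42 on the vehicle-titled ones. The same ratio for actin was higher, at 6.50, 7.78 and 8.46 against 8.26, 7.59 and 7.51. Each ratio was lowest at number 1 in the fluoxetine-titled group and not in the vehicle-titled group. The part of RNA length in these values was not tested.

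**Figure D4:**
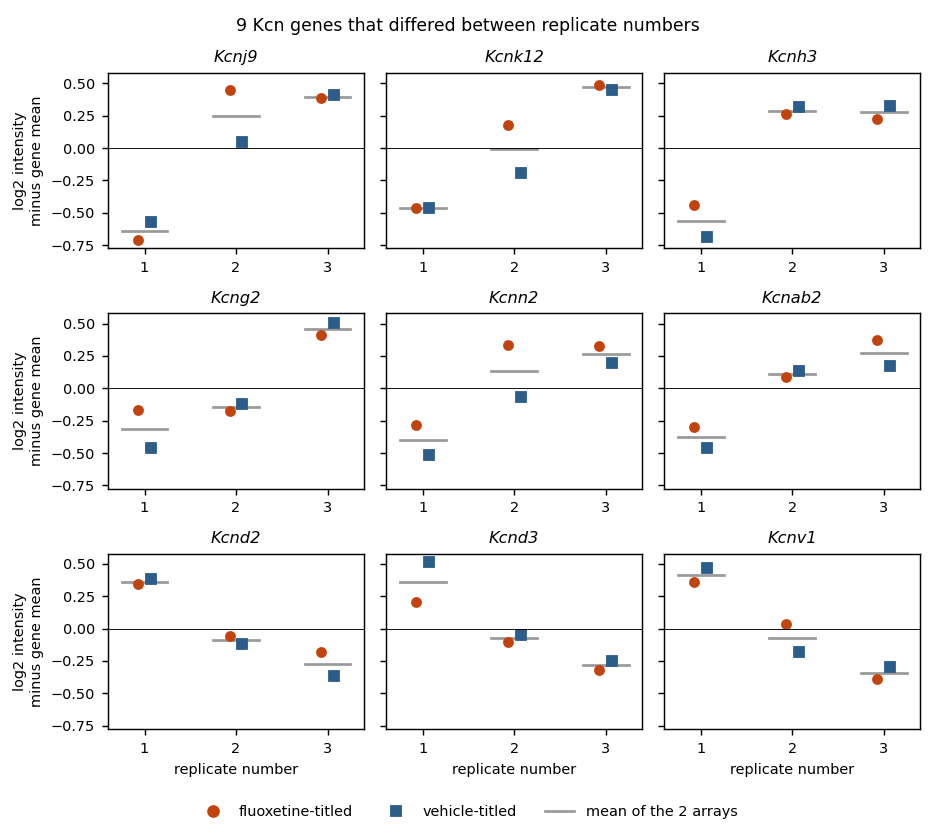
Log2 intensity minus the gene's mean over the 6 arrays, for the 9 channel genes that differed between replicate numbers by the limma F-test. Circles are fluoxetine-titled arrays, squares vehicle-titled arrays and grey bars their mean, and the mean at number 1 is the lowest for 6 genes and the highest for Kcnd2, Kcnd3 and Kcnv1.

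Probe sets of 1 channel gene did not always share this pattern. Of 27 members with at least 2 probe sets past the filter, 10 (37.0%) had probe sets of opposite sign for number 1 against the mean of numbers 2 and 3, beside 46.8% of 4406 such genes of all kinds. For the treatment title, 15 (55.6%) had opposite signs, beside 51.0%. Kcnd2 was the only member with called probe sets in both directions. Its brightest probe set (1422835_at) was 1.46-fold higher at number 1, while 1422834_at read 256, 692 and 779 on the fluoxetine-titled arrays and 348, 729.9 and 677 on the vehicle-titled ones. On the latter probe set numbers 2 and 3 were 2.41-fold above number 1, with an adjusted limma p of 0.0115. The Kcnd2 probe set 1450773_at was also lower at number 1, with numbers 2 and 3 1.56-fold above it (adjusted limma p 0.0857). Kcnd2 therefore had no single order of replicate numbers on these arrays.

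Kcnc1 and Kcna1 were called only through probe sets other than the brightest. For Kcnc1, 1423559_at read 130.1, 309 and 227 against 113, 313 and 233, with numbers 2 and 3 2.20-fold above number 1 (adjusted limma p 0.0066), and 1456944_at was 1.68-fold higher there (0.0351). The brightest Kcnc1 probe set had an adjusted limma p of 0.189. For Kcna1, 1437230_at read 638, 1123 and 1116 against 595, 1300.2 and 1218, with numbers 2 and 3 1.93-fold above number 1 (adjusted limma p 0.0130), and the brightest probe set had an adjusted p of 0.525. Beside the called Kcnj9 probe set (1450712_at), the other one past the filter, 1428602_at, read 460.4, 459 and 439 against 403, 460.2 and 467 with an adjusted limma p of 0.829. For Kcnh3 another probe set, 1459107_at, was called too and had the same direction, at 1.77-fold beside 1.80-fold. For Kcnab2 the dimmer probe set, 1425885_a_at, was not called (adjusted limma p 0.613) and was 1.08-fold higher at number 1. The dimmer Kcnv1 probe sets were also higher at number 1 but not called (adjusted limma p 0.161 and 0.196). In all, 15 of 86 member probe sets past the filter (17.4%, beside 14.8% of all 19073) were called between numbers, in 11 genes.

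**Figure D5:**
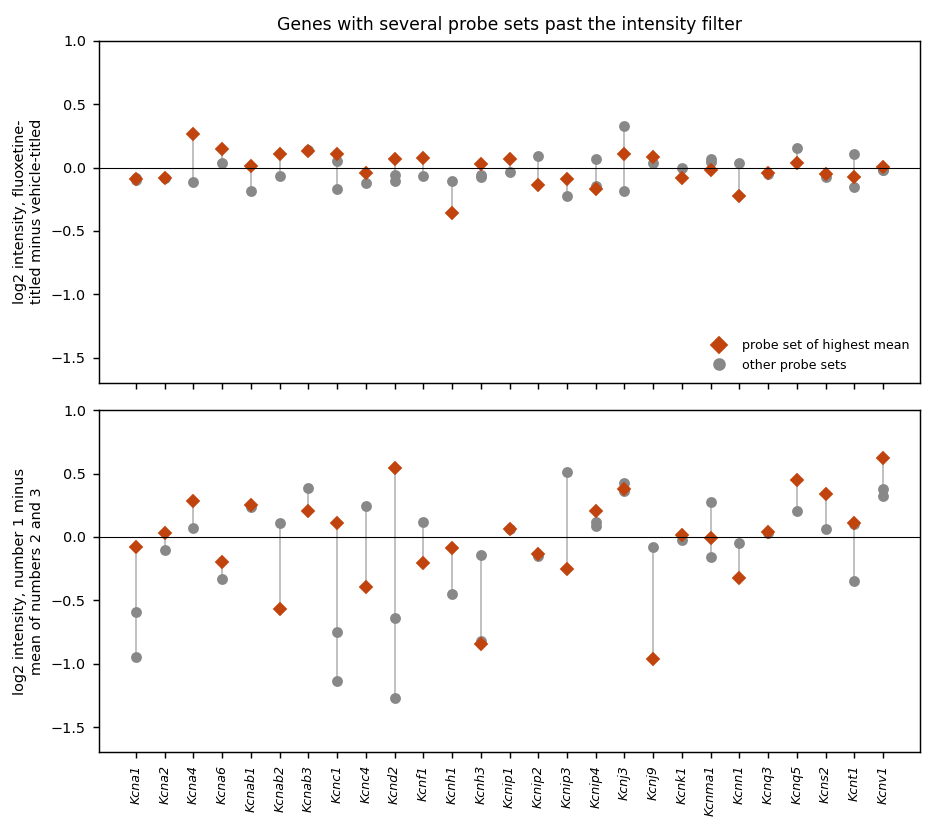
Log2 intensity differences of every probe set past the filter for the 27 channel genes with several, between the title groups (top) and between replicate number 1 and the mean of numbers 2 and 3 (bottom). Diamonds mark the probe set of highest mean and circles the others, and the widest spread within a gene is that of Kcnd2 in the lower panel, from -1.27 to 0.54.

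Of 36 listed partners of potassium channels that are not named Kcn (anchoring, trafficking and G protein genes), 28 were measured, with 13 above 0, 15 below and a median of -0.0048. None was called by limma and none reached an unadjusted p under 0.05. Consistently over the 3 pairs, 5 of 28 were higher (17.9%, beside 10.9% of all genes) and 3 lower (10.7%, beside 13.1%). Stx1a, a syntaxin that binds channels at the membrane, was the only one with no overlap between groups (1 of 28, 3.57%, beside 1.98% of all genes in that direction), with a difference of -0.15. Dlg4 and Ank3, scaffolds of the synapse and of the axon initial segment, had differences of 0.24 and 0.23. Between replicate numbers, Cacna1a, Lrrc38 and Nedd4l were called, 3 of 28 (10.7%, beside 12.9% of all genes).

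Median array intensity was 23.03 to 23.45, and the number of arrays limits the precision. The 7 measured layer 5 markers (of 8 listed, Colgalt2 and Bcl11b among them) were each past 50 on at least 1 array, with sums from 37290 to 51457. Pcp4 alone read 24332 and 37135 on the arrays with those sums. Of the 7 markers, 6 lay below 0 between the title groups and 1 above. Their median was -0.088 (0.13, -0.13 and -0.22 in pairs 1, 2 and 3). Astrocyte markers lay above 0 for 12 of 12 and oligodendrocyte markers for 8 of 9, with medians of 0.26 and 0.15. In pairs 1, 2 and 3 the medians were -0.036, -0.019 and 0.78 for astrocytes and -0.081, -0.084 and 0.55 for oligodendrocytes. Both were thus above 0 in pair 3 only. The sum of the oligodendrocyte markers ran from 20724 to 38200, and Cnp alone read 12446 and 21583 on the arrays with those sums. The sum of the 6 measured microglial markers ran from 1218 to 3137. Both sums were lowest on vehicle-titled array 3. Kcnk13, a channel known from microglia, had pair differences of 0.24, -0.36 and -0.080, where the 6 measured microglial markers (the other 3 listed were below 50 on every array) had medians of -0.25, -0.048 and 0.78. For all 6 measured vessel markers the mean log2 difference was above 0 (median 0.37), with sums of 1946 to 2165 against 1462 to 1783. Single pairs ran the other way for Vtn (-0.061 and -0.067 in pairs 1 and 2) and Cldn5 (-0.12 in pair 3).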

How the data were processed

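Per the submitters' processing notes, the authors deposited 1 GCRMA intensity per probe set and array, on a linear scale. The GCRMA version is not given in the sources used here. Background correction and normalization between arrays were done before deposit. The design text mentions averaged replicates and a published list of probe sets, but the table has 1 column per array and that list was not used here.

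Of 45101 probe sets, 64 controls were left out, and 19073 whose mean in at least 1 group reached 50 were tested. Platform annotation gave 34945 probe sets 1 symbol, 932 several and 9160 none. Entrez identifiers of 84 of 84 members matched RefSeq (GRCm38.p6). Families follow the start of the symbol, with the noncoding Kcnmb4os1, Kcnmb4os2 and Kcnq1ot1 kept apart. Linear models (limma 3.58.1 in R 4.3.3, functions lmFit and eBayes) were fitted to log2 intensity over all 6 arrays, two-sided, with Benjamini-Hochberg adjustment over the tested probe sets. The scripts were tested on simulated data.

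Named genes were members with no overlap between groups, the 3 largest differences in each of 4 families, up to 6 members with the smallest adjusted p between replicate numbers, and a list of 23 main components of neuronal and glial currents, of which 19 were measured. Other members are given where a count or a disagreement turned on them, chosen after their values were seen. Members, lists and tests were chosen with earlier results of these data known. Alternatives were the replicate block, other filters, a pseudocount of 16, quantile normalization, the mean of a gene's probe sets, a variance trend, and leaving out arrays or numbers. The samples were taken as paired by number, from the titles and a check of deviations from the group means. Over all tested probe sets these correlated at 0.74, 0.60 and 0.50 between arrays sharing a number, and at -0.59 to 0.26 between the others of opposite group. Over the compared members alone the values were 0.79, 0.27 and 0.61, and -0.68 to 0.16. Deviations within a group sum to 0, so the negative values are partly built in.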

Additional observations from a re-analysis of the deposited data

How the results depend on the processing

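No adjusted call between the title groups appeared among the channel genes under any alternative run. Members at an unadjusted limma p under 0.05 numbered 4 with the replicate block, 2 with no intensity filter, 0 with the mean of all probe sets past the filter, and 0 to 1 when an array or a number was left out. The block changed no other call. Members differing between replicate numbers numbered 0 with no filter, 14 with a variance prior that follows the mean, and 0 to 9 when an array or a number was left out. With the mean of probe sets, 4 members were higher in all 3 pairs and 1 was lower with no overlap, and after quantile normalization 1 was lower with no overlap. Except for the replicate block, shares of all genes are not given beside these counts. Nothing particular to channel genes is read from them. The voltage-gated median was -0.034 with the mean of probe sets. The inward rectifier median was 0.079 with no filter. The two-pore median was -0.014 with no filter and -0.067 where both means had to reach 50. When an array or a number was left out, medians ran from -0.042 to 0.019 (all members), -0.088 to 0.014 (voltage-gated), 0.069 to 0.22 (inward rectifiers), -0.078 to 0.048 (two-pore), -0.046 to 0.027 (calcium- and sodium-activated) and -0.10 to 0.10 (auxiliary). The calcium- and sodium-activated median turned to 0.024 with the mean of probe sets, and the auxiliary median to -0.023 with it and -0.011 with no filter. The mean of probe sets turned the sign of Kcnc1 (-0.0055), Kcnd2 (-0.034), Kcnh3 (-0.033), Kcnma1 (0.030) and Kcnv1 (-0.011). Leaving out arrays or numbers turned the sign of 20 named genes, whose differences then ran as follows: Kcnab2 -0.10 to 0.28, Kcnc1 -0.087 to 0.23, Kcnc2 -0.12 to 0.22, Kcnd2 -0.10 to 0.28, Kcnd3 -0.31 to 0.075, Kcng2 -0.17 to 0.32, Kcnh3 -0.31 to 0.26, Kcnj10 -0.12 to 0.38, Kcnj3 -0.025 to 0.23, Kcnj4 -0.11 to 0.55, Kcnj9 -0.19 to 0.46, Kcnk1 -0.14 to 0.017, Kcnk12 -0.080 to 0.40, Kcnk4 -0.021 to 0.23, Kcnma1 -0.14 to 0.062, Kcnmb4 -0.11 to 0.080, Kcnq3 -0.13 to 0.0028, Kcnq5 -0.13 to 0.18, Kcnt2 -0.041 to 0.25 and Kcnv1 -0.17 to 0.24. The causes were not tested. Signal limits the dim members, of which 34 did not reach 50.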
